A study of Mus musculus with 46 samples.

Results

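The 5 candidate cis-regulatory elements (cCREs) of the mouse Klf2 locus, named E030, E022, E075, E040 and E092, were chosen by their measured values in a Downstream reporter assay, where their mean effect on promoters was among the lowest of 84 cCREs. They make up 82 of the 1501 Downstream cCRE constructs, of which 75 carry a promoter and 7 do not. In the Upstream assay they occur in 1567 of the 19789 constructs of the Klf2 library, which holds 86 cCREs. The question was whether the lowering seen downstream of the reporter was also measured in the upstream position and without a promoter.

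The cells were E14TG2a, an established line of mouse embryonic stem cells, and were kept in 2i+LIF medium. Cells were transfected transiently with barcoded plasmids and harvested after 24 h. The 6 samples used are reporter cDNA from 3 biological replicates of the Upstream mix (with libraries for Klf2, for Nanog and for negative controls) and from 3 of the mix of all Downstream libraries. No group differs in genotype or treatment, so every comparison is between constructs within the same transfected cells, and plasmids carry no information on the fragments' chromatin at home. A construct's activity is its barcode abundance in reporter RNA divided by that in the plasmid input. The number of barcodes behind each value is unknown. The replicates of a mix were transfected with the same plasmids, so their spread does not include how plasmids of the same construct differ.

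A cCRE is a short stretch of DNA whose chromatin marks it as a possible enhancer, silencer or other control element. In a reporter assay an enhancer raises the transcripts of a linked promoter, and a fragment that lowers them may act as a silencer, but a fragment can also affect a reporter through its transcript. Klf2 encodes a Krüppel-like transcription factor that helps to keep embryonic stem cells in the naive pluripotent state. An insert downstream of a reporter does not adjoin its start of transcription, whereas a fragment placed directly upstream can start transcription itself.

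Fragments are given as the files list them, on chromosome 8 of mm10, with start and end 450 bp apart. E030 (chr8:72125819-72126269) overlaps the long non-coding RNA gene Gm39196. E022 (chr8:72004717-72005167) lies within the bounds of Cyp4f18, a cytochrome P450 gene, and of the long non-coding RNA gene Gm51535. E075 (chr8:72453911-72454361) lies in 1700030K09Rik, E040 (chr8:72211896-72212346) in Cib3 and E092 (chr8:72654903-72655353) in Nwd1. The table of genes used does not settle exon or intron. Relative to the start of P016, the promoter fragment of Klf2, the 5 lie at -193 kb (E030), -314 kb (E022), 135 kb (E075), -107 kb (E040) and 336 kb (E092). E092 shares 79 bp with a neighbouring cCRE, E091, and the others overlap no listed fragment.

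E030 is the only member that overlaps an annotated transcription start, and 3 of the 84 Downstream cCREs do. The RefSeq start window of Gm39196 (GRCm38.p6, chr8:72125875-72126174, minus strand) lies wholly within it. It is shown because E030 is the member whose mean Upstream value was below 0 before promoters and above 0 behind them. That change of sign rests on its - orientation. Bases from the annotated start onwards are in capitals, after 250 bases before it, all on the strand of the gene.
E030, Gm39196 start window: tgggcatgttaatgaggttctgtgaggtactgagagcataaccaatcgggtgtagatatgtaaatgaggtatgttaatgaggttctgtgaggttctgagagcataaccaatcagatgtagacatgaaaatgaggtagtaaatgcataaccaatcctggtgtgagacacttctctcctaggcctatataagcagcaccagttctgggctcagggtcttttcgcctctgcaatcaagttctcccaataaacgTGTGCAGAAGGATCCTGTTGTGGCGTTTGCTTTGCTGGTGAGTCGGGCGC
This window had a GC content of 46.0% and 6 CpG dinucleotides, against medians of 52.7% and 7 over 32851 such windows. Of 8 motifs searched on both strands, 3 had 1 match each and the other 5 none. The motif AATAAA matched, as did the motif CACCC and the E-box CANNTG. The first of these, the canonical polyadenylation signal, was on the gene's strand and ended 2 bases before the annotated start. It is found in 19.6% of all windows, CACCC in 57.5% and CANNTG in 72.3%. The motifs without a match are found in 66.0% (CCCTC), 35.7% (GGGCGG), 1.74% (ATGCAAAT), 4.72% (AAGGTCA) and 7.65% (GTAAGT). After the sequence had been seen, CCAAT and TATAA were added. CCAAT had 4 matches, the last of them sharing 3 letters with AATAAA, and is found in 37.4% of windows, while TATAA had 1, with its first letter 66 bases before the start, and is found in 24.9%. Matches are descriptions of these letters only. The sequences of E022, E075, E040 and E092 were not used here.

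Downstream of the reporter, all 75 constructs of the 5 cCREs with a promoter lay below the median construct with that promoter. These values chose the members, so they are a description without a test. They are given as the authors' deposited boost index: the activity of a construct relative to the median for its promoter, as log2. For the values per replicate this median was taken over inserts whose names start with E, so 0 is not the level of control inserts. Control medians ranged from -0.80 with promoter P001 to 0.03 with promoter P014. E030 had the lowest mean, -1.07 ± 0.12 (SD between replicates, n = 3) over 19 constructs and 10 promoters. E022 followed at -1.03 ± 0.18 over 4 constructs, all in the + orientation. E075 had -0.71 ± 0.12 over 20 constructs, E040 -0.63 ± 0.06 over 12 and E092 -0.58 ± 0.06 over 20. The border of the set is not sharp: E103 had -0.59 over 8 constructs, below E092 in rank, and E098 had -0.58 over 20. E091, which shares 79 bp with E092, had -0.20 over 18 constructs, and the highest cCRE, E007, had 1.01.

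Against the vector with the same promoter and no insert, activity with the members was also lower, by a mean of -1.38 (E030), -1.23 (E022), -1.01 (E075), -0.92 (E040) and -0.88 (E092) on the log2 scale. This is 0.385 times the vector's activity for E030 and 0.542 times for E092. Against shuffled and random control inserts the same means were -0.89, -0.93, -0.55, -0.48 and -0.42. Of the 75 constructs, 69 were below the mean control and 13 were below every single control with their promoter, so most lay within the spread of individual control sequences. All 3 replicates were below 0 in 73 of the 75 constructs, with 18 of 20 for E075 and every construct of the other 4, while 41.1% of all 1364 Downstream cCRE constructs with a promoter had this. This contrast chose the members, so nothing is read from that count.

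The values of a member ranged over promoters. E040, measured with 10 promoters, lay between -0.85 with the Rab8a promoter P009 and -0.48 with the Klf2 promoter P016. E075 ranged from -1.48 with P016 to -0.06 with P009, both in the + orientation. E030 ranged from -1.66 with the Zfp882 promoter P001 to -0.37 with P018, a fragment that covers starts of Calr3 and 1700030K09Rik. In E030's construct with P001, activity was 0.141, 0.0707 and 0.0722 in replicates 1 to 3, so its first replicate stood apart. E092 ranged from -1.16 with P001 to -0.08 with the Med26 promoter P021, and E022 only from -1.18 with P017 to -0.91 with P018.

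Turning a fragment around changed its value by a median of 0.15 for E030, 0.29 for E075 and 0.22 for E092 over the 9 or 10 promoters measured in both orientations. The Klf2 promoter had the largest gap for E030 and E075, in opposite senses. Its vector without insert had activities of 0.815, 1.37 and 1.11. E030 in + orientation gave 0.419, 0.614 and 0.508, and in - orientation 0.199, 0.390 and 0.359. E075 gave 0.266, 0.364 and 0.297 in + and 0.496, 0.897 and 0.624 in - orientation. E040 in + orientation gave 0.435, 0.793 and 0.663. E092 in + orientation gave 0.343, 0.619 and 0.527, and in - orientation 0.367, 0.676 and 0.584. In each replicate every one of these constructs was below the vector.

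The library also held 3 inserts listed as E30-shuffled1 to 3, whose names refer to E030 with its bases in another order. Over 9 promoters they had mean boost indices of -0.19, -0.11 and 0.02. All E030 constructs were below all 6 shuffled ones with 7 of the 9 promoters, the exceptions being P016 and P018. With P016 the lowest shuffled construct was at -0.88 and E030 at -0.75 and -1.49. These are values of the assay that chose E030 and were not tested.

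Without a promoter, the members were again low, in constructs the choice did not use. The 7 constructs of E030, E075, E092 and E040 had activities of 0.0354 to 0.0726 in replicate 1, 0.0569 to 0.0953 in replicate 2 and 0.0463 to 0.0884 in replicate 3. The vector with neither promoter nor insert had 0.102, 0.194 and 0.155, above all 7 in each replicate. Shuffled and random control inserts had medians of 0.0631, 0.0993 and 0.0895, also below that vector in each replicate. Across the 137 cCRE constructs in this vector the medians were 0.107, 0.173 and 0.160. E022 was not measured here.

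Each construct was tested against the mean of the 39 control inserts with limma and Benjamini-Hochberg (BH) adjustment over all 137. Of the 7, 4 were lower at an adjusted p under 0.05, against 6.57% of all constructs called lower. E030 in - orientation, with 0.0378, 0.0624 and 0.0463, was lower by -1.11 (SE 0.29, limma adjusted p = 7.48e-04). E075 in + orientation, with 0.0354, 0.0569 and 0.0572, was lower by -1.08 (limma adjusted p = 9.49e-04), and in - orientation by -0.68 (limma adjusted p = 0.045). E092 in + orientation, with 0.0387, 0.0626 and 0.0579, was lower by -0.99 (limma adjusted p = 0.0026). E030 in + orientation was at -0.51, E040 in + at -0.43 and E092 in - at -0.40, with limma adjusted p of 0.14, 0.21 and 0.24. The 4 called constructs ranked 2, 3, 9 and 4 from the lowest of 137. Outside the set, E098 in + orientation ranked 5 and was lower by -0.98 (limma adjusted p = 0.0028). E098 in - and E091 in - orientation were not called (limma adjusted p = 0.4 and 0.75).

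Since constructs and controls were measured in the same cells, a fit with the replicate as a block was also made, and it called all 7 lower, against 20.4% of all constructs. Leaving out replicate 3 left 0 of the 7 called lower by limma (3 at an unadjusted p under 0.05), leaving out replicate 1 gave 7 and leaving out replicate 2 gave 3. Of all 137 constructs, 0 were called lower without replicate 3, 23 without replicate 1 and 5 without replicate 2. The controls themselves ranged widely, from 0.0307 to 0.454 in replicate 1, a spread that the test against their mean leaves out. No member was below all of them: 3 of the 39 controls were lower than E030 in - orientation and 18 were lower than E092 in - orientation. The shuffled inserts of E030 spanned boost indices of -1.68 to 0.53 here, and E030 lay at -1.54 and -0.94, within that span.

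Upstream of the reporter, with the cCRE in front of the promoter, the members' constructs were mostly below the promoter alone. Of 197 such constructs 194 had no replicate at 0 and were tested, and 180 of them were below the promoter alone, with a median difference of -0.84 on the log2 scale. Limma with BH adjustment called 84 of the 194 lower and 0 higher (100 lower at an unadjusted p under 0.05). Over all 3685 Klf2 constructs of this order the median difference was -0.28 and 12% were called lower. By member, 20 of 44 were called lower for E030, 2 of 2 for E022, 19 of 47 for E075, 16 of 42 for E040 and 27 of 59 for E092.

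The calls fell on active promoters. Where the promoter alone had an activity over 1, 83 of 94 member constructs were called lower and all 94 were below the promoter, while 24.5% of all Klf2 cCRE constructs with such promoters were called lower. Where it was under 1, 1 of 100 was called, against 0.519% of all cCRE constructs, and 86 of the 100 were below the promoter, against 64.3% of all. For E030 all 20 constructs with a promoter over 1 were called lower, most of these promoters being measured in both orientations. Low values of this mix shifted between replicates, as with the single promoter P016 in - orientation at 0.236, 0.142 and 0.375. The median single cCRE moved the same way, at 0.122, 0.0617 and 0.249. A fit without the replicate as a block counts such shared shifts as spread.

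The largest called reductions were with strong promoters. Promoter P021 of Med26, a Mediator subunit, had 6.88, 7.42 and 6.14 alone in its - orientation. With E030 in front of it, activity was 1.18, 1.16 and 1.16, a difference of -2.54 (SE 0.12, limma adjusted p = 0.0064). E030 before P017 in - orientation (-2.52) and before P021 in + orientation (-2.21) were the next among the called pairs. E022 was measured with only a pair of promoters. Before P009, E022 gave 0.687, 0.956 and 0.574 against 2.24, 2.03 and 2.02 for the promoter alone, a difference of -1.54 (limma adjusted p = 0.015). Before P021 in - orientation it gave 3.31, 2.16 and 1.83, a difference of -1.53 (limma adjusted p = 0.02). In these constructs no replicate overlapped the promoter alone.

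For E075 the largest called differences were -1.49 with P001, -1.44 with P018 and -1.41 with P022, the promoter of Smim7. For E040 they were -1.48 with P009, -1.45 with P019, the promoter of Cherp, and -1.45 with P018. For E092 they were -1.93 with P018, -1.62 with P017 and -1.62 with P009. At the other end, the highest differences of E030, E075, E040 and E092 were 0.71, 0.85, 0.32 and 0.46, all with promoters under an activity of 1 and with limma adjusted p between 0.37 and 0.82. The highest of E030, with P002 in + orientation, was called higher with the replicate as a block (limma adjusted p = 0.041). E075's highest value, with P010, rests on replicate 2, at 3.21 against 0.068 and 0.350 in the others.

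With the Klf2 promoter itself the reduction was smaller for E030, and less certain for E040 and E092. P016 in its + orientation had 1.37, 1.20 and 1.49 alone. With E030 in front it had 0.676, 0.778 and 0.914, a difference of -0.78 (SE 0.17, limma adjusted p = 0.039). With E040 it had 0.257, 0.326 and 0.798, a difference of -1.73 (limma adjusted p = 0.062), the lowest of E040 in this order. With E092 it had 0.446, 0.782 and 1.81, a difference of -0.65 (limma adjusted p = 0.53), and the third replicate was above the promoter alone. The other orientation of P016 gave -0.88 with E030, -0.92 with E040 and 0.15 with E092, none of them called.

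These single-construct calls rest on 3 replicates each: with any replicate left out, limma called 0 of the constructs in this order, although 80, 86 and 98 of the members' constructs were still lower at an unadjusted p under 0.05 without replicates 1, 2 and 3. With the replicate as a block 797 of all constructs were called lower in place of 441, or 21.6%, and 96 of the members' in place of 84, while 1 of the members' was called higher in place of 0. Against the median construct with the same promoter, in place of the promoter alone, 45 of the members' constructs were called lower, and 2.42% of all.

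Averaged over promoters, the lowering upstream was measured for each member that had enough constructs. The mean boost index, with the median construct of the same promoter as baseline, was computed in each replicate and tested against 0 with limma over the 79 cCREs with at least 3 promoters. E030 had -0.75, -0.98 and -0.62 in the 3 replicates, a mean of -0.78 ± 0.18 (SD, n = 3; limma adjusted p = 0.0013), and ranked lowest of the 79. E040 had -0.57, -0.85 and -0.40 (mean -0.61, limma adjusted p = 0.0036) and ranked 4. E092 had -0.51, -0.73 and -0.44 (mean -0.56, limma adjusted p = 0.0026) and ranked 5. E075 had -0.33, -0.50 and -0.33 (mean -0.39, limma adjusted p = 0.0052) and ranked 10. All replicates of the 4 cCREs were below 0, and 31.6% of all 79 cCREs were called lower. Outside the set, E098 was at -0.40 (limma adjusted p = 0.0054) and ranked 9, lower than E075. E091 was at -0.33 (limma adjusted p = 0.014) and ranked 15.

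E022 entered only where a single promoter sufficed. It then had -1.13, -1.24 and -1.57 (mean -1.31, limma adjusted p = 3.75e-04) from its 2 constructs and ranked 2 of 82, of which 34.1% were called lower. The lowest of the 82 was E103, outside the set, at -1.92 from 1 construct. The mean index was called lower for the 4 better measured members with any replicate left out, and in each orientation with at least 3 promoters. Of all 79 cCREs, 12, 17 and 30 were called lower without replicates 1, 2 and 3. By orientation 17 of 67 were called lower in + and 24 of 64 in -. Against the promoter alone, the means of the 4 members were -1.03 (E030), -0.85 (E040), -0.82 (E092) and -0.69 (E075), all called lower, as were 67.1% of all 79. A fit without the pairing of a construct with its baseline in the same replicate called 0 of the 79 lower, by limma, and 6 at an unadjusted p under 0.05 in either direction.

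The same constructs can be set side by side in both assays. For 43 member constructs the cCRE, its orientation and the promoter were the same downstream and upstream. All 43 had a boost index below 0 in both. Downstream this chose the members, and upstream 49.0% of all 847 such cCRE constructs were below 0. For E030 the means over 11 shared constructs were -0.98 downstream and -1.17 upstream. E040 had -0.61 and -0.76 over 9, E092 -0.49 and -0.66 over 13, and E075 -0.79 and -0.43 over 10. The tables were scaled separately, so the sizes were not compared by a test. Over the 10 Downstream promoters alone, the Upstream means were -1.27 (E030), -0.79 (E040), -0.69 (E092) and -0.54 (E075), all called lower by limma, against 43% of the 79 cCREs.

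The size did not carry over promoter by promoter in every case. E030 with P018 was the mildest of its constructs downstream, at -0.37, and was at -0.59 upstream. E030 with P021 was at -0.70 downstream and -1.89 upstream. E075 with P001 was at -1.41 downstream and -0.35 upstream, and with P009 at -0.06 and -0.45. E040 with the Klf2 promoter was at -0.48 downstream and -1.49 upstream, and E030 with it at -0.75 and -0.54.

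With the order reversed, so that the promoter came first and the cCRE lay next to the reporter, constructs of E030 were called in both directions. Against the promoter alone, 122 of 217 member constructs were called lower and 6 higher, all 6 with E030. In this order 48.8% of all 3987 Klf2 constructs were called lower and 3.79% higher, the median difference was -1.18, and 3229 of them were below the promoter alone. The median over the members was -2.11. With the replicate as a block, 16 of the members' constructs were called higher in place of 6, and 6.97% of all. Without replicate 1 none of the 6 was kept, with 0 of the members' constructs called higher by limma and 38 of all. With the median construct of each promoter as baseline, 8 of the 217 were called lower and 1 higher, against 2.33% and 11% of all.

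Strong promoters lost most. P021 in + orientation had 8.09, 8.53 and 7.20 alone and 0.140, 0.0503 and 0.268 with E022 behind it, a difference of -6.00 (SE 0.62, limma adjusted p = 5.03e-04). P009 in - orientation with E022 behind it was at -4.33. The largest called differences were -5.06, -4.87 and -4.50 for E075, each with P021, and -5.22, -4.71 and -4.25 for E040, with P003, P014 and P021. For E092 they were -4.57 and -4.10 with P021 and -3.95 with P018, and for E030 -4.64 with P017, -4.37 with P021 and -4.32 with P022. The median single cCRE alone had 0.122, 0.0617 and 0.249, so the construct of E022 behind P021 was near that level. Where the promoter alone had an activity over 1, 115 of 116 member constructs were called lower, and so were 93.8% of all cCRE constructs. The median difference with these promoters was -3.06 for the members and -2.36 for all cCRE constructs.

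With weak promoters, constructs with E030 behind the promoter were above it. P007 in + orientation had 0.0995, 0.0405 and 0.229 alone and 0.495, 0.465 and 0.623 with E030 behind it, a difference of 2.43 (SE 0.64, limma adjusted p = 0.022). P005 in + orientation (2.17, limma adjusted p = 0.048) and P002 in - orientation (2.17, limma adjusted p = 0.015) were the next. No construct of the other 4 members was called higher, and their highest values were 1.69 for E040 with P005 and 0.58 for E075 with P005, with limma adjusted p of 0.1 and 0.72. The constructs were also split by the activity of E030 alone in the same orientation. Of the 25 with a promoter above it, 24 were below that promoter. Of the 22 with a promoter below it, 20 were above that promoter. Their median activities were 0.543 and 0.393, and the promoters alone ranged from 0.0742 to 18.6. This split was not made for other cCREs. Split at a promoter activity of 1 instead, 97.4% of all Klf2 constructs in this order were below promoters over 1. Below promoters under 1 were 64.5% of all. For E030 these shares were 100% and 8.70%. What sets these levels was not tested.

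The Klf2 promoter was also measured in this order. P016 in + orientation with E030 behind it had 0.662, 0.137 and 0.374, a difference of -2.06 (limma adjusted p = 0.031). E040 in - orientation gave 0.119, 0.0495 and 0.169 there, a difference of -3.76 (limma adjusted p = 0.0011), and in + orientation a difference of -4.48 (limma adjusted p = 0.054). E092 gave 0.0973, 0.0353 and 0.299, a difference of -3.74 (limma adjusted p = 0.0085). These values of E040 in - orientation and of E092 were near the median single cCRE alone, at 0.122, 0.0617 and 0.249. Behind P016 in - orientation, whose activity alone was low, E030 was at 0.60, E040 at -0.95 and -1.66, E075 at -1.30 and E092 at -0.80, none of them called.

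The mean boost index in this order was 0.89, 0.78 and 0.39 for E030, a mean of 0.69 ± 0.26 (SD, n = 3; limma adjusted p = 0.01), above 0, whereas it was below 0 in front of the promoter. This value rests on the - orientation, which was at 0.83 (limma adjusted p = 0.0034) with 29.9% of 154 oriented cCREs called higher. In + orientation E030 was at -0.03 behind the promoter (limma adjusted p = 0.78) and at -0.78 in front of it, so in the matched orientation the lowering was not detected behind the promoter and no reversal was seen. E075 was at -0.82 (limma adjusted p = 0.012), E092 at -0.53 (limma adjusted p = 0.013) and E040 at -0.44 (limma adjusted p = 0.016). Of all 81 cCREs 38.3% were called lower and 35.8% higher. E075 ranked 2 from the lowest. Against the promoter alone, the mean was below 0 for all 4, at -0.77 (E030), -2.46 (E075), -2.04 (E092) and -1.93 (E040). So it was for most cCREs in this order: 72 of the 81 were called lower, with a median of -1.59. E030 lay above that median and ranked 69 from the lowest.

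Position and orientation were unevenly filled for E030. With promoters it was in + orientation in 43 of 44 constructs when first and in - orientation in 39 of 47 when second. The difference between positions was therefore also tested within an orientation, second minus first, with limma over all cCREs that had both. With promoter partners E030 in + orientation was higher by 0.74 in second position, from 8 constructs there (0.67, 0.96 and 0.60 in the replicates, limma adjusted p = 0.0033), while 27.2% of 125 oriented cCREs were higher and 12.8% lower. E075 in - orientation was lower by -0.58 (limma adjusted p = 0.025). The 4 other oriented members differed by -0.24 to 0.15 and were not called. Without replicate 1 limma called 0 of the 125 (40 at an unadjusted p under 0.05), with E030 at 0.78. Without replicate 2 E030 kept its call and E075, at -0.36, did not, while 24 of the 125 were called higher and 9 lower.

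Paired with other cCREs in place of promoters, E030 was above 0 and E040, E075 and E092 were below it. Over all partners and both positions E030 was at 0.43 ± 0.16 (SD, n = 3; limma adjusted p = 0.043), E040 at -0.50 (limma adjusted p = 0.043), E075 at -0.54 (limma adjusted p = 0.043) and E092 at -0.26 (limma adjusted p = 0.063). Among 83 cCREs 16.9% were called lower and 24.1% higher. In first position E030 was below 0, at -0.46, -0.58 and -0.26 (mean -0.43, limma adjusted p = 0.042), with 8.86% of cCREs called lower. In second position it was at 1.40, 1.67 and 0.75 (mean 1.27, limma adjusted p = 0.012), with 19.5% called higher. E075 in second position was at -0.53 (limma adjusted p = 0.036), with 13.4% called lower.

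Within an orientation, E030 next to the reporter exceeded E030 in first position by 1.26 in + (limma adjusted p = 2.58e-04) and by 1.70 in - orientation (limma adjusted p = 9.10e-05), though only 5 constructs held it first in -. Without replicate 2 the difference in + was 1.00 and no longer called (limma adjusted p = 0.07). Of 123 oriented cCREs 18.7% were higher in second position. The gaps of E040, E075 and E092 lay between -0.18 and 0.29, and none was called. The means over both positions are less firm: without replicate 1 none of the 4 members was called in either direction, and with the median over partners in place of the mean E030, at 0.30, E040, E075 and E092 were not called.

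Alone upstream of the reporter, with no other fragment, E030 was an active fragment. Gm39196 is annotated on the minus strand, and in - orientation E030 had 0.805, 0.415 and 0.753, and in + orientation 0.292, 0.205 and 0.372. The median of single cCREs was 0.122, 0.0617 and 0.249. E030 was above it by 2.36 in - (SE 0.28, limma adjusted p = 0.011) and by 1.19 in + orientation (limma adjusted p = 0.036), ranking 9 and 24 from the highest of 161 oriented cCREs, of which 17.4% were called higher. Its call in + was lost without replicate 1 (limma adjusted p = 0.097) and without replicate 2 (limma adjusted p = 0.088). The single Klf2 promoter P016 in + orientation, at 1.37, 1.20 and 1.49, was above both.

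None of the other members was called in either direction as a single fragment. E022 in + orientation had 0.0446, 0.0243 and 0.225, a difference of -0.98 from the median single cCRE (limma adjusted p = 0.089). It was at -1.45, -1.35 and -0.14 in the replicates, and without replicate 3 it was called lower, at -1.40 (limma adjusted p = 3.99e-06). In that fit 16 of all 161 were called lower, and E022 had the same SE, 0.27, as the other members. The remaining 6 oriented fragments of E040, E075 and E092 differed from the median single cCRE by -0.40 to 0.01 and were not called. With all 3 replicates, 1.86% of the 161 were called lower. A construct listed as eempty in the same mix had 0.118, 0.0675 and 0.238 as a single fragment, close to that median, and E022 was below it in each replicate. Downstream and without a promoter, E030 had boost indices of -1.54 in - and -0.94 in + orientation. Against the mean control insert there it was at -1.11 in - and -0.51 in +, the latter not called (limma adjusted p = 0.14).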

How the data were processed

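Barcodes were counted in reporter cDNA and in plasmid DNA. The authors deposited activities per construct and biological replicate as a linear ratio of cDNA to plasmid DNA barcodes, per the file headers and labels, and boost indices as log2 values. Bowtie2 and mm10 are named in the submitters' processing notes. How barcodes were filtered is not given in the sources used here, so depth is unknown and no counting interval is given. The deposited boost index was checked on the values: with a tolerance of 0.001 it equalled log2 of the geometric mean over replicates divided by the median for that promoter, for all 3685 finite Upstream Klf2 and all 2364 Downstream values.

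Samples were grouped by their titles. Any construct listed at 0 in a replicate was dropped, or kept in an alternative with 0.01 added to all activities. Tests used limma 3.58.1 (R 4.3.3) on log2 activities, over all constructs or cCREs of a comparison, with Benjamini-Hochberg adjustment at 0.05, and checked on simulated data. Pairs with promoters and the vector without promoter compared 3 values with 3 of the baseline. Means per cCRE and single fragments used differences within a replicate against 0, since construct and baseline come from the same transfected cells. For the pairs with the cCRE first, deviations of a construct and its promoter correlated across constructs at 0.02, 0.59 and 0.79 in replicates 1, 2 and 3. Means per cCRE needed at least 3 partners. Tables were prepared with Python 3.11.15, pandas 2.3.3 and numpy 2.4.6.

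The members, lists, motifs and tests were chosen with earlier results of these data known. Named are all 5 members with, for each assay, their pair with P016, their lowest and highest pairs and up to 3 called pairs with the largest difference in each direction, then the nearest cCREs outside the set, the overlapping cCRE and the highest cCRE.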

Additional observations from a re-analysis of the deposited data

How the results depend on the processing

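Counts are of tests on the 5 cCREs called lower, or higher for single fragments. With any replicate left out, pairs with the cCRE first gave 0 to 0 calls in place of 84, and the vector without promoter 0 to 7 in place of 4. Over cCRE partners leaving out a replicate gave 0 to 2 in place of 2, and for single fragments 1 to 2 in place of 2. Over all tests, leaving out a replicate gave 0 calls for these pairs and 0 to 23 for the vector without promoter. It gave 3 to 26 over cCRE partners and 19 to 39 for single fragments. With the replicate block, the pairs gave 96 and, with the promoter first, 142 in place of 122, and the vector without promoter 7. Over all tests, 797 of 3685, 2248 of 3987 and 28 of 137 were then called lower. Without the pairing of replicates, the mean boost index, the cCRE partners and the single fragments each gave 0. With the median construct as baseline the pairs gave 45 and 8, with the median cCRE the vector without promoter gave 7, and the median over partners gave 0. Over all tests, 89 of 3685, 93 of 3987, 27 of 137 and 1 of 83 were then called lower. E030 reversed to 0.69 with the promoter first, which rests on its - orientation (-0.03 in +), and to -0.43 with cCRE partners in first position. Other reversals were of values that were not called: with a replicate left out, single E092 in + ranged from -0.19 to 0.19, its position difference with cCRE partners from -0.076 to 0.011, E040 before P007 from -0.15 to 0.57, E075 before P010 from -0.88 to 2.12 and E092 behind P024 from -0.59 to 1.26. Of 513 alternative values for members and named pairs, 396 kept direction and side of the threshold, or for values without a test lay within the spread between replicates. The eempty baseline, the orientations and the position tests were chosen after seeing the data. Negative controls as a baseline for single fragments were not run, since the Upstream table used lists none. Depth per construct is unknown, and low activities in the Upstream mix limit what can be detected below the median.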
